A study of Homo sapiens with 8 samples.

Results

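The 37 genes described here serve the cell's responses to amino acid shortage and to unfolded protein, together with the cytosolic enzymes that charge transfer RNAs. They were chosen as a list of named symbols and not by a rule on measured values, but with earlier results of these data known. They fall into 8 genes of the ATF4 axis, 5 of serine and folate metabolism, 6 of the endoplasmic reticulum (ER) and 18 cytosolic aminoacyl-tRNA synthetases. All 37 were among the 27317 gene symbols measured, and all 37 passed the filter on low counts that left 17268 genes for testing. Their transcript levels were measured by RNA sequencing in the human embryonic stem cell line MEL1. While still undifferentiated, the cells (ESCs) were given either TCDD, a dioxin and agonist of the aryl hydrocarbon receptor (AHR), at 2 nM or the DMSO it was dissolved in. D2 libraries came from cells after 2 days of cardiac differentiation with 5 µM of the GSK3 inhibitor CHIR99021, and D1 libraries from cells taken just before it. The 4 groups were TCDD at D2, DMSO at D2, TCDD at D1 and DMSO at D1, with 2 libraries each. Nothing says whether the libraries of a group came from separate cultures, so p-values measure the spread between these libraries alone, and that spread may be technical. All groups are a single cell line, so they carry 1 genetic background.

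ATF4 is a transcription factor whose protein is made when the translation factor eIF2 is phosphorylated, by GCN2 on uncharged tRNA, by PERK on unfolded protein in the ER, or by other kinases. It then switches on genes for amino acid synthesis, amino acid transport and tRNA charging. ATF6 and spliced XBP1, other arms of the unfolded protein response, switch on ER chaperones. Stem cells draw on the serine and folate pathway for nucleotides and methyl groups while they divide quickly.

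The 8 libraries held 34873055 to 43770420 counts, and the 37 genes together took 0.928% to 1.09% of a library. Levels below are in CPM, edgeR's count relative to the scaled library total, and are compared between samples, not between genes. CYP1A1, the classic AHR target, checked the labels. It was at 2.56 and 1.82 CPM with TCDD and at 0.464 and 0.292 CPM with DMSO at D2, and at 101 and 77.7 CPM with TCDD and 0.761 and 0.813 CPM with DMSO at D1; 4 of 5 AHR targets were higher with TCDD at D2 and 5 of 5 at D1. All 8 pluripotency markers were detected in every group. The summed level of 8 primitive streak and mesoderm markers was 497 to 567 CPM with TCDD and 826 to 850 CPM with DMSO at D2, against 11.6 to 12.1 CPM at D1 with TCDD and 11.8 to 11.9 CPM at D1 with DMSO. Of 6 fibroblast or feeder markers, 2 were at 0 in each group, LUM and either DCN or COL3A1, and in bulk samples fewer cells of a type cannot be told apart from less RNA per cell.

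The promoters of 31 of the 37 genes were found in RefSeq (GRCh38.p14), from 250 bases before to 50 bases after the annotated start; 18 of the 37 gene symbols matched through an older name. PSPH, SHMT2, DARS, LARS, VARS and YARS had no entry. The DDIT4 promoter is shown because DDIT4 was the 1 member that TCDD raised at both days. Its capitals mark the AHR core motif GCGTG, found 3 times (-219 to -215, -53 to -49 and 26 to 30 relative to the start). They also mark ACGTG, the only form of the hypoxia factor core that was searched as such, found once (-125 to -121).
DDIT4, chr10:72273674-72273973, strand +: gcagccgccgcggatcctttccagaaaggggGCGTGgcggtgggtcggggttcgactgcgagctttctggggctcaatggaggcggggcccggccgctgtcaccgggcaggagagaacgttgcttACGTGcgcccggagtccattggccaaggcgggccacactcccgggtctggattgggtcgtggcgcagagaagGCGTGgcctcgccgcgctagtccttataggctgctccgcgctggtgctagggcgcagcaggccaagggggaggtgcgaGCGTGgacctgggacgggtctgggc
GCGTG is in 36.3% and ACGTG in 21.6% of 27305 promoters of this length on either strand. Of the 31 members with an entry, 21 carried GCGTG and 10 carried ACGTG. TRIB3 and XBP1, which were not called with TCDD at either day, were among those with GCGTG. The ATF4-type element TGATGNAA is not in the DDIT4 window. A match is a run of letters and not a measured binding site.

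The amino acid response element, searched as TGATGNAA on both strands and abbreviated CARE, is bound by ATF4 together with C/EBP factors. It was in 3.67% of the 27305 promoters and in those of 10 of the 31 members with an entry: ATF3, CHAC1, ASNS, HERPUD1, AARS, CARS, IARS, MARS, NARS and TARS. The windows below, with the element in capitals, are shown because they split the synthetases into a set with and a set without a match.
ASNS, chr7:97872461-97872484, read on strand -: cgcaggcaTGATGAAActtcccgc
CHAC1, chr15:40953254-40953277, read on strand -: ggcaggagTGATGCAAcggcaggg
AARS, chr16:70289678-70289701, read on strand +: aacttggcTGATGCAActgcgaga
CARS, chr11:3057410-3057433, read on strand +: ctagaatcTGATGCAAccgccgcc
IARS, chr9:92293695-92293718, read on strand +: cacggaggTGATGCAAcgcgctga
MARS, chr12:57488056-57488079, read on strand -: tccctcgcTGATGCAAccggaacc
NARS, chr18:57621807-57621830, read on strand -: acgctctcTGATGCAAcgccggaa
TARS, chr5:33440959-33440982, read on strand -: ggaccagcTGATGCAAtcgaaagg
In the 6 synthetases the element had the same 8 letters, TGATGCAA, whereas ASNS had TGATGAAA.

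The ER stress element, searched on both strands as CCAAT and CCACG with 9 bases of any kind between them and abbreviated ERSE, is bound by NF-Y with ATF6 or XBP1. It was in 0.0806% of all promoters, that is 22 of them, and among those were HSPA5, HSP90B1, CALR and XBP1. HERPUD1 carried the related ERSE-II, searched as ATTGG, any base and CCACG, present in 0.0549% of promoters. The HSPA5 promoter is shown whole because HSPA5 had the largest D2 change of the ER genes, with its element in capitals (-66 to -48), and the other matches follow as windows.
HSPA5, chr9:125241294-125241593, strand -: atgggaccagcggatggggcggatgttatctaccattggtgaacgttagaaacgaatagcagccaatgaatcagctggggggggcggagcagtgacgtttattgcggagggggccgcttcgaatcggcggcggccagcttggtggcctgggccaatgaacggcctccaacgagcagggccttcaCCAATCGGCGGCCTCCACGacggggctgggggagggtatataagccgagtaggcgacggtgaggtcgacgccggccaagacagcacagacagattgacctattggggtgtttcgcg
HSP90B1, chr12:103930208-103930242, read on strand +: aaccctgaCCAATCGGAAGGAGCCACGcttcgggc
HSP90B1, chr12:103930313-103930347, read on strand -: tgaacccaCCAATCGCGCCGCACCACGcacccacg
CALR, chr19:12938376-12938410, read on strand -: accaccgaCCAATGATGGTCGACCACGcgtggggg
XBP1, chr22:28800595-28800629, read on strand -: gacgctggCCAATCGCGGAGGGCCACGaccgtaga
HERPUD1, chr16:56932017-56932043, read on strand +: ggacgccgATTGGGCCACGttgggaga
The ERSE matches of HSP90B1 and CALR overlap GCGTG matches, and the ERSE-II match of HERPUD1 overlaps an ACGTG match.

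**Figure D1:**
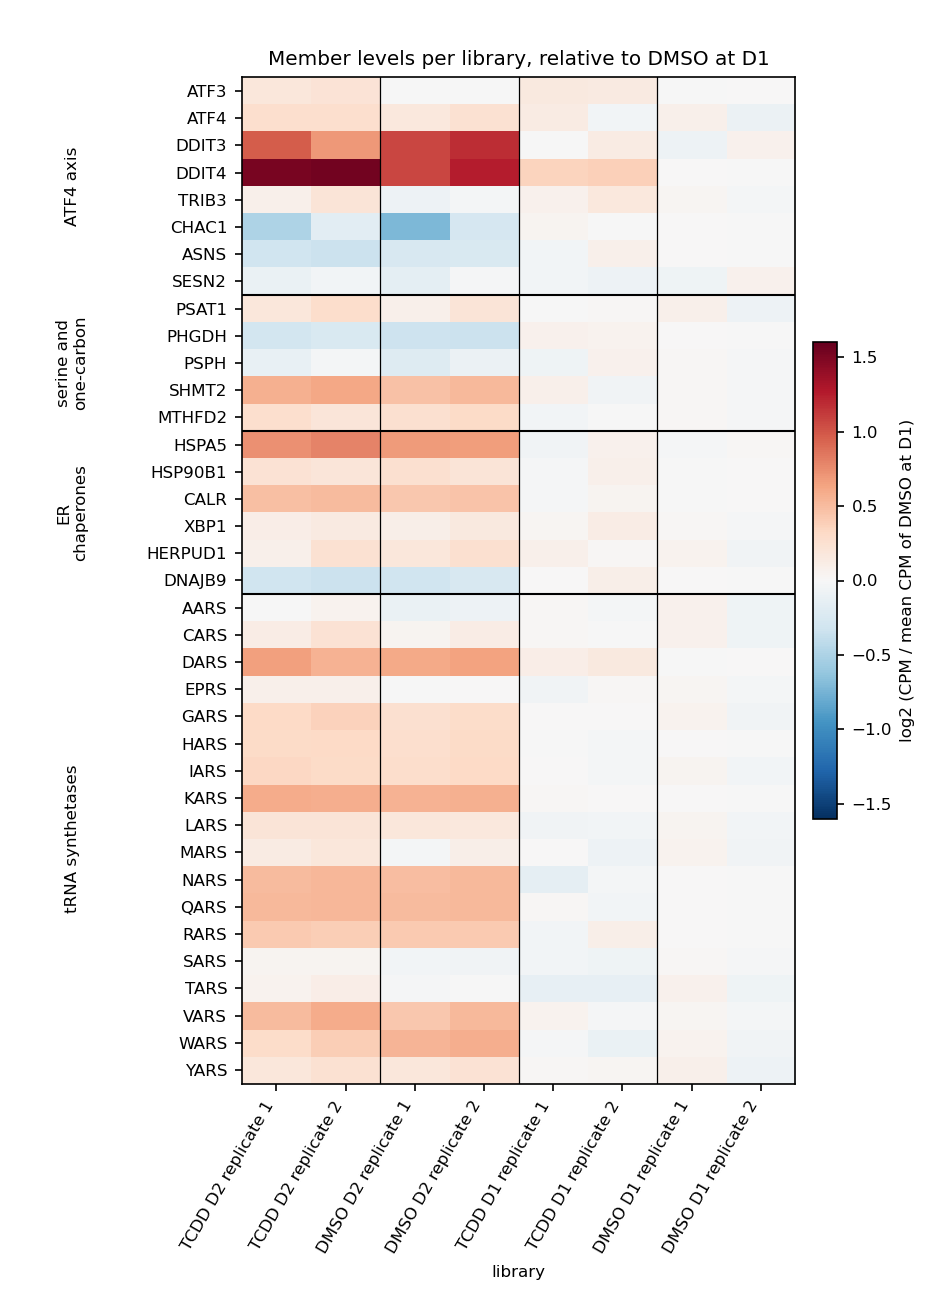
Level of each of the 37 genes (rows, by role) in each of the 8 libraries (columns), as log2 of its CPM over the mean CPM of DMSO at D1. DDIT4 is the only row that is darker with TCDD than with DMSO at both days and passes the test; most synthetase rows are redder in all 4 D2 libraries than in the D1 libraries.

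TCDD was compared with DMSO first in the differentiating cells at D2 and then in the ESCs at D1, to ask whether the exposure moved these stress genes. Of the 37 genes, TCDD raised DDIT4 and lowered WARS at D2 and raised DDIT4 alone at D1; the other 35 and 36 did not pass the test (edgeR quasi-likelihood F test over all 17268 genes, Benjamini-Hochberg adjusted p under 0.05). Of all genes tested, 2.9% were called at D2 (1.4% higher and 1.5% lower) and 1.14% at D1 (0.735% higher and 0.405% lower), so the members' counts of 2 and 1 lie near these background rates. The median log2 fold change of the 37 was 0.050 at D2 and 0.011 at D1, against 0.00080 and 0.00040 over all genes tested. An unadjusted p under 0.05 was reached by 10 members at D2 (8 higher, 2 lower) and by 3 at D1 (2 higher, 1 lower), against 14% and 10.3% of all genes.

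DDIT4 encodes REDD1, which restrains the growth kinase mTORC1 and is itself induced by ATF4, by low oxygen and by glucocorticoids. At D2 it stood at 243 and 248 CPM with TCDD and at 178 and 202 CPM with DMSO, a log2 fold change of 0.37 ± 0.05 (SE; 29.0% higher, edgeR adjusted p = 9.64e-05). At D1 it stood at 108 and 110 CPM with TCDD and at 85.2 and 84.2 CPM with DMSO, again a log2 fold change of 0.37 ± 0.05 (29.0% higher, edgeR adjusted p = 0.000374). The groups did not overlap at either day, as was so for 47.7% of all genes at D2 and 37.5% at D1. The difference between the TCDD effects, D2 less D1, had a 95% interval of -0.15 to 0.15 (edgeR). Both calls held in all 8 fits that each left out 1 library (log2 fold changes of 0.28 to 0.46 at D2 and 0.36 to 0.38 at D1).

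DDIT4 also answers to low oxygen, and 15 other hypoxia-inducible genes were therefore read beside it. At D2 only ADM, which encodes the vasodilator peptide adrenomedullin, was higher with TCDD among the 15, at 67.9 and 74.9 CPM with TCDD against 37.1 and 45.5 CPM with DMSO (log2 fold change 0.79 ± 0.08, edgeR adjusted p = 9.64e-06). At D1, 6 of the 15 were higher and none lower, among them ADM (0.45 ± 0.08), the oxygen sensor EGLN1 (0.39 ± 0.06) and the mitophagy receptor BNIP3 (0.31 ± 0.05). Of all genes, 0.735% were called higher at D1 and 1.4% at D2. SLC2A1 had the largest D1 fold change of the list, at 772 and 596 CPM with TCDD against 440 and 378 CPM with DMSO. Its log2 fold change of 0.74 did not pass with edgeR (edgeR adjusted p = 0.152). DESeq2 called it (DESeq2 adjusted p = 0.000681), with 7 of the 15 called higher. The TCDD effect was lower at D2 than at D1 for 4 of the 15, including PDK1, which holds pyruvate back from mitochondria (difference -0.37 ± 0.08, edgeR adjusted p = 0.0198), EGLN1 (-0.37 ± 0.08, 0.0385) and BNIP3 (-0.36 ± 0.07, 0.0117). Of all genes, 0.822% were called for this difference (0.527% higher and 0.295% lower). In the same libraries the DDIT4 effect was 0.37 at both days. Whether the hypoxia genes have a part in the DDIT4 result was not tested.

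**Figure D2:**
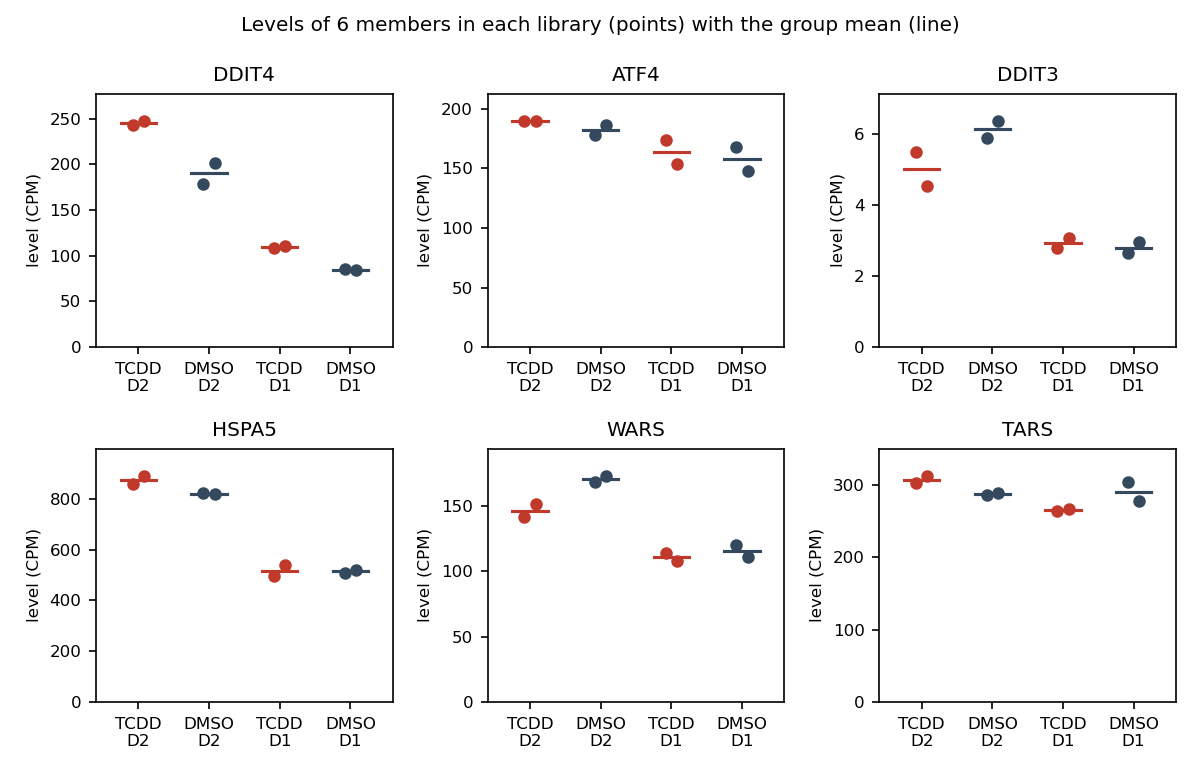
CPM of 6 genes in each library (points) with the mean of the 2 libraries (line), TCDD in red and DMSO in blue, D2 left of D1; each axis starts at 0. DDIT4 lies higher with TCDD at both days, WARS lies lower with TCDD at D2, and HSPA5 and DDIT3 lie higher at D2 under both treatments.

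The rest of the ATF4 axis showed no change with TCDD that passed the test at either day. ATF4 itself was at 190 and 190 CPM with TCDD and 178 and 186 CPM with DMSO at D2 (0.06 ± 0.06, 95% interval -0.07 to 0.19), and at 173 and 153 CPM with TCDD and 168 and 148 CPM with DMSO at D1 (0.05 ± 0.06, -0.08 to 0.18). The D1 groups overlapped. ATF4 is controlled mainly at translation, so its transcript level does not report its protein. ASNS, asparagine synthetase and a standard readout of the pathway, had 90.9 and 89.4 CPM with TCDD against 94.4 and 95.7 CPM with DMSO at D2 (-0.08 ± 0.05), and 109 and 119 CPM with TCDD against 113 and 113 CPM with DMSO at D1 (0.02 ± 0.05).

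ATF3, a stress-induced repressor, had 12.4 and 12.8 CPM with TCDD and 10.9 and 10.9 CPM with DMSO at D2 (0.21 ± 0.08, edgeR adjusted p = 0.222), and 12.2 and 12.1 CPM with TCDD against 10.9 and 11.0 CPM with DMSO at D1 (0.15 ± 0.08, 0.531). Its libraries separated by treatment at both days, as for 47.7% of all genes at D2 and 37.5% at D1, and neither value passed. DDIT3, the pro-apoptotic factor CHOP, had 5.48 and 4.54 CPM with TCDD against 5.90 and 6.38 CPM with DMSO at D2 (-0.29 ± 0.12, edgeR adjusted p = 0.277). It was the least abundant member in counts, with 105 to 262 per library, and its locus overlaps MARS in the RefSeq annotation, so reads of the pair may be split by the authors' counting, with no strand setting given in the sources used here. The pseudokinase TRIB3 (0.20 ± 0.09 at D2 and 0.12 ± 0.09 at D1), the glutathione-degrading CHAC1 (0.13 ± 0.13 and 0.02 ± 0.12) and the leucine sensor SESN2 (0.0053 ± 0.06 and -0.06 ± 0.06) did not pass either.

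The 5 genes of serine and folate metabolism showed no call by TCDD, with log2 fold changes of -0.06 (MTHFD2) to 0.10 (SHMT2) at D2 and of -0.02 (MTHFD2) to 0.06 (PHGDH) at D1. The 6 ER genes ranged from -0.06 (HERPUD1) to 0.09 (HSPA5) at D2 and from 0.0079 (HSPA5) to 0.07 (XBP1) at D1, again with no call. Of these 11 genes, 1 had an unadjusted p under 0.05 at D2 (SHMT2) and 0 at D1, and DESeq2 called 0. HSPA5, the ER chaperone BiP, had a 95% interval of -0.0024 to 0.19 at D2 and of -0.09 to 0.10 at D1.

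Among the synthetases, WARS, which charges tryptophan tRNA and is also induced by interferon gamma, was lower with TCDD at D2. It had 141 and 151 CPM with TCDD and 168 and 173 CPM with DMSO (-0.22 ± 0.05, 14.3% lower, edgeR adjusted p = 0.014). The groups did not overlap, as for 47.7% of all genes. The call was lost without DMSO replicate 1, without DMSO replicate 2 and without TCDD replicate 1 of D2, with values of -0.28 to -0.17 and adjusted p of 0.00635 to 0.194 over the 8 fits that each left out 1 library. At D1 the values were 114 and 107 CPM with TCDD and 120 and 111 CPM with DMSO, which overlapped (-0.06 ± 0.05, edgeR adjusted p = 0.765). The difference between the 2 effects was -0.16 ± 0.07 (edgeR adjusted p = 0.434) and did not pass.

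Streak and mesoderm markers moved in the same D2 comparison: their sum was 497 to 567 CPM with TCDD and 826 to 850 CPM with DMSO. Of the 8, 4 were called lower, T, MIXL1, EOMES and WNT3, and 4 did not pass. Among those that did not pass, 2 had values above 0: MESP1 (1.35 and 1.29 CPM with TCDD, 1.01 and 1.07 CPM with DMSO) and SP5 (199 and 231 CPM with TCDD, 193 and 206 CPM with DMSO). The pluripotency sum was 5509 to 5616 CPM with TCDD and 5173 to 5259 CPM with DMSO, and 1 of its 8 markers, SOX2, was called higher. Values above 0 were seen for 6 of the 8, and NANOG had 22.9 and 22.9 CPM with TCDD against 26.2 and 24.8 CPM with DMSO, without a call. The fibroblast or feeder sum was 353 to 355 CPM with TCDD and 297 to 314 CPM with DMSO. Of its 3 tested markers, COL1A1 was called higher, and the 2 others had values below 0 that did not pass. The sums of 4 endoderm markers (20.8 to 23.3 CPM with TCDD, 36.9 to 40.5 CPM with DMSO), 4 neuroectoderm markers (386 to 396 CPM with TCDD, 363 to 366 CPM with DMSO) and 4 cardiomyocyte markers (7.74 to 8.37 CPM with TCDD, 7.45 to 7.56 CPM with DMSO) were also apart. Of the 3 tested endoderm markers, CER1 was called lower, and CXCR4 had a value above 0 that did not pass. The part of all these markers in the WARS and DDIT4 results at D2 was not tested.

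The other 17 synthetases ranged from -0.02 (DARS) to 0.12 (MARS) at D2 and from -0.13 (TARS) to 0.14 (DARS) at D1 in their log2 fold change with TCDD. DARS, the aspartate enzyme, had 233 and 241 CPM with TCDD against 215 and 217 CPM with DMSO at D1 (0.14 ± 0.05, edgeR adjusted p = 0.233), and TARS, the threonine enzyme, had 264 and 266 CPM with TCDD against 303 and 277 CPM with DMSO (-0.13 ± 0.05, 0.287). Both pairs of groups were separate, in opposite directions, as was so in either direction for 37.5% of all genes at D1, and neither passed. None of the 37 genes passed the test of the difference between the TCDD effects, D2 less D1, for which 0.822% of all genes were called; 4 had an unadjusted p under 0.05, and DESeq2 called 0 as well. TARS came nearest, with 302 and 313 CPM with TCDD and 286 and 288 CPM with DMSO at D2, a difference of effects of 0.23 ± 0.07 (edgeR adjusted p = 0.147).

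**Figure D3:**
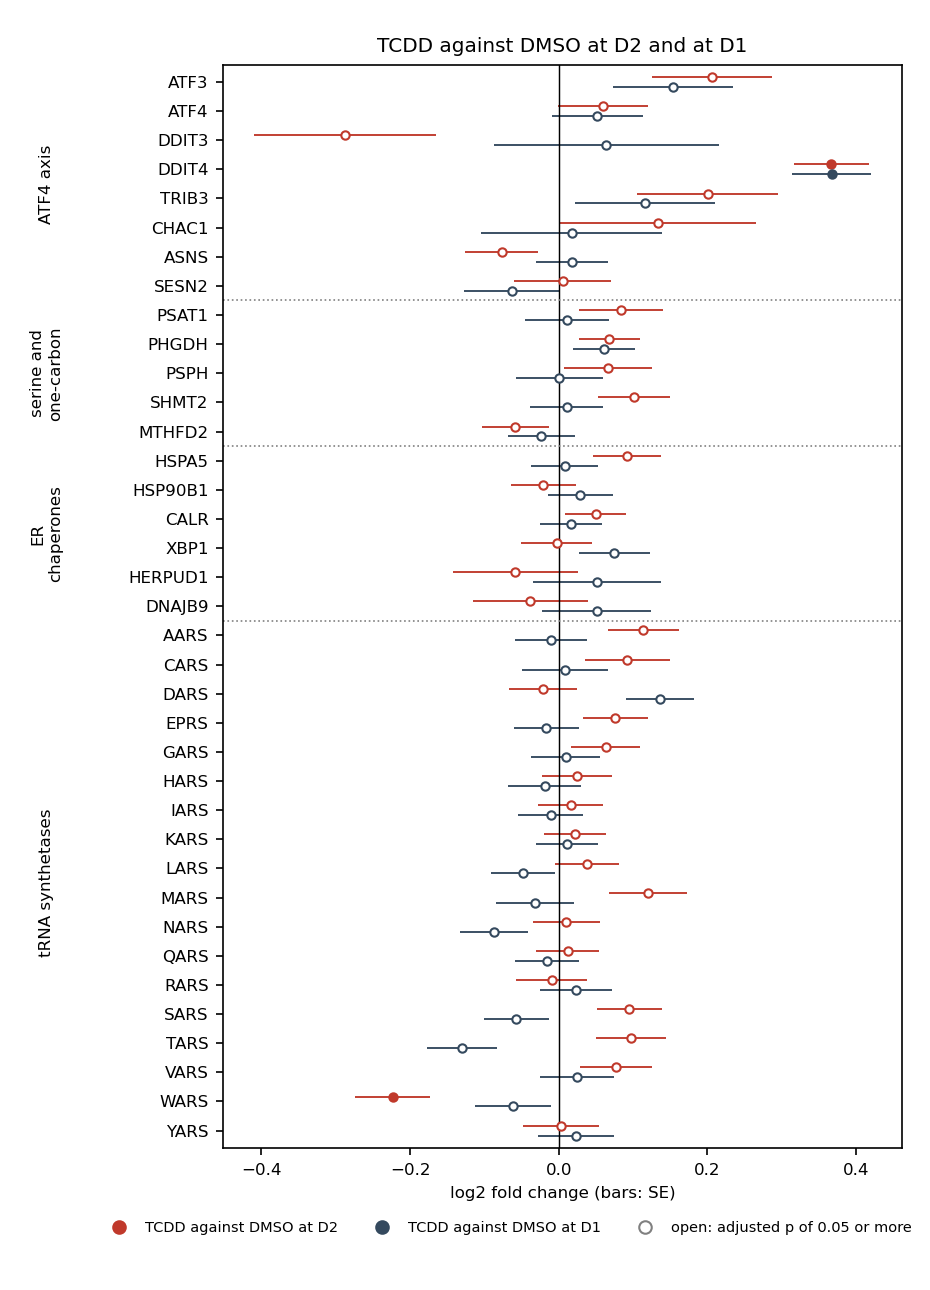
Log2 fold change of TCDD against DMSO for each gene (rows, by role), red at D2 and blue at D1, with SE bars; filled points have an adjusted p under 0.05. DDIT4 sits at 0.37 at both days, WARS at -0.22 at D2, and every other point is open.

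Further genes of the same pathways were read in the same way, beside 2.9% of all genes called at D2 and 1.14% at D1. The edgeR fit called none of the 17 mitochondrial synthetases, 6 synthetase scaffold and phenylalanine-enzyme genes, 13 eIF2 kinase, phosphatase and subunit genes, 20 further ER stress genes or 12 further serine and folate genes with TCDD at either day. Of these 68, 7 had an unadjusted p under 0.05 at D2 and 4 at D1, against 14% and 10.3% of all genes, and DESeq2 called 0 at both. Of 28 further ATF4 targets, 2 were higher and 1 lower at D2, and 1 was higher at D1. That is 10.7% called at D2 and 3.57% at D1, in a list chosen with earlier results of these data known. At D2 these were SLC3A2, the heavy chain of several amino acid transporters, at 369 and 403 CPM with TCDD against 282 and 308 CPM with DMSO (0.39 ± 0.05, edgeR adjusted p = 0.000129), the mitochondrial folate enzyme ALDH1L2 (0.64 ± 0.12, 0.00371) and the lipoprotein receptor VLDLR (-0.27 ± 0.07, 0.0368). At D1 it was the proline synthesis enzyme PYCR1 (0.24 ± 0.05, 0.0197). The largest fold change of the list at D2 was that of SLC7A5, the light chain that pairs with SLC3A2 in a transporter of large neutral amino acids, which was named after its values were seen. It had 727 and 893 CPM with TCDD against 476 and 553 CPM with DMSO (0.65 ± 0.14, edgeR adjusted p = 0.133). Its libraries did not overlap, as for 47.7% of all genes. It did not pass with edgeR, and it was called by DESeq2 (DESeq2 adjusted p = 0.00305), which called 3 of the list higher and 1 lower at D2.

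D2 was then compared with D1 within each treatment, which asks how the pathway moved during the first 2 days of differentiation. With TCDD, 25 of the 37 genes rose at D2, 4 fell and 8 did not pass; with DMSO, 23 rose, 5 fell and 9 did not pass. Most genes moved in this comparison: 65.3% of all genes were called with TCDD (33.1% higher, 32.2% lower) and 63.2% with DMSO (32.5% higher, 30.7% lower). The members' median log2 fold change was 0.21 under both treatments, against -0.0024 with TCDD and 0.0089 with DMSO over all genes. Of the 37, 21 rose and 4 fell under both treatments, 4 were called with TCDD only and 3 with DMSO only. D2 and D1 differ in time, medium and inhibitor together, and these cannot be told apart. With TCDD the state of the exposure may differ as well, since the labels do not say how long it lasted. Of 5 AHR targets, 5 were called lower at D2 than at D1 with TCDD, and 2 higher and 1 lower with DMSO. The same limit applies to the difference between the TCDD effects. Without scaling for library composition all genes shift by -0.11 with TCDD and -0.09 with DMSO. The members then split into 17 higher and 5 lower with TCDD and 18 higher and 9 lower with DMSO. The calls of ATF4 and PSAT1 under both treatments, of HSP90B1 with TCDD and of XBP1 and HERPUD1 with DMSO were then among those lost, and PSPH with TCDD and SESN2 with DMSO were called lower.

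Markers of other cell types moved in the same comparison. The fibroblast or feeder sum was 353 to 355 CPM at D2 against 847 to 929 CPM at D1 with TCDD, and 297 to 314 CPM at D2 against 834 to 876 CPM at D1 with DMSO. Of its 3 tested markers, 2 were called lower at D2 and 1, COL1A2, higher under each treatment. COL1A2 had 85.2 and 84.4 CPM at D2 against 73.0 and 68.1 CPM at D1 with TCDD. THY1, a surface protein that fibroblasts share with pluripotent stem cells, had 72.6 and 71.2 CPM at D2 against 472 and 415 CPM at D1 with TCDD. The neuroectoderm sum was 386 to 396 CPM at D2 against 550 to 596 CPM at D1 with TCDD, and 363 to 366 CPM at D2 against 655 to 669.8 CPM at D1 with DMSO. The pluripotency sum was 5509 to 5616 CPM at D2 against 6358 to 6516 CPM at D1 with TCDD, and 5173 to 5259 CPM at D2 against 6576 to 6875 CPM at D1 with DMSO. Single pluripotency markers went both ways. Of the 8, 4 were called higher and 3 lower at D2 with TCDD, and 1 higher and 5 lower with DMSO. The streak and mesoderm and endoderm sums were higher at D2. The cardiomyocyte sum was 7.74 to 8.37 CPM at D2 against 18.8 to 19.7 CPM at D1 with TCDD, and 7.45 to 7.56 CPM at D2 against 17.1 to 19.3 CPM at D1 with DMSO. The part of these markers in the members' differences between days was not tested.

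Of the 8 ATF4 axis genes, 3 rose and 2 fell at D2 under each treatment. That is 62.5% called, near the 65.3% of all genes with TCDD and 63.2% with DMSO. DDIT4 rose most, to 243 and 248 CPM at D2 with TCDD against 108 and 110 CPM at D1, and to 178 and 202 CPM at D2 with DMSO against 85.2 and 84.2 CPM at D1. Its log2 fold change was 1.16 ± 0.05 under both treatments (edgeR adjusted p = 8.61e-14 with TCDD and 9.84e-14 with DMSO). Every D2 library was above every D1 library; the days were separate for 81.4% of all genes with TCDD and 82.5% with DMSO. DDIT3 rose to 5.48 and 4.54 CPM at D2 with TCDD against 2.80 and 3.08 CPM at D1 (0.78 ± 0.14), and to 5.90 and 6.38 CPM at D2 with DMSO against 2.66 and 2.95 CPM at D1 (1.13 ± 0.13); its low counts and its overlap with MARS apply here too.

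ATF4 rose by 0.21 ± 0.06 under both treatments, a call that was lost when TCDD replicate 2 of D1 (0.13), DMSO replicate 2 of D1 or DMSO replicate 2 of D2 (lowest value 0.12) was left out. ASNS went the other way: it had 90.9 and 89.4 CPM at D2 with TCDD against 109 and 119 CPM at D1 (-0.34 ± 0.05, edgeR adjusted p = 3.02e-06), and 94.4 and 95.7 CPM at D2 with DMSO against 113 and 113 CPM at D1 (-0.25 ± 0.05, 0.000148). CHAC1 fell as well (-0.35 ± 0.13 with TCDD and -0.46 ± 0.13 with DMSO), with D2 libraries that were far apart, 6.55 and 8.20 CPM with TCDD and 5.62 and 7.69 CPM with DMSO. Its call was lost without TCDD replicate 1 of D1 or of D2 (value nearest 0 -0.19) and without DMSO replicate 1 of D2 (-0.26). ATF3, TRIB3 and SESN2 did not pass under either treatment, with values between -0.08 and 0.05.

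Of the 5 serine and folate genes, 3 rose and 1 fell at D2 with TCDD, and 3 rose and 2 fell with DMSO. Of all genes, 65.3% were called with TCDD and 63.2% with DMSO, in both directions. SHMT2, which makes glycine and one-carbon units in mitochondria, rose to 308 and 318 CPM at D2 with TCDD against 219 and 200 CPM at D1 (0.58 ± 0.05, edgeR adjusted p = 1.52e-09), and to 287 and 297 CPM at D2 with DMSO against 211 and 205 CPM at D1 (0.49 ± 0.05). PHGDH, the first enzyme of serine synthesis, fell to 461 and 475 CPM at D2 with TCDD against 593 and 586 CPM at D1 (-0.33 ± 0.04, edgeR adjusted p = 5.39e-07), and to 447 and 446 CPM at D2 with DMSO against 568 and 562 CPM at D1 (-0.34 ± 0.04). The groups did not overlap for either gene, as for 81.4% of all genes with TCDD and 82.5% with DMSO. MTHFD2, the mitochondrial folate dehydrogenase, rose by 0.25 ± 0.05 with TCDD and 0.29 ± 0.04 with DMSO, and the transaminase PSAT1 by 0.22 ± 0.06 and 0.15 ± 0.06. PSPH, the last enzyme of serine synthesis, fell with DMSO (-0.14 ± 0.06, edgeR adjusted p = 0.0393) and had -0.08 ± 0.06 with TCDD. The PSAT1 calls were lost without TCDD replicate 2 of D2, DMSO replicate 2 of D1 or DMSO replicate 2 of D2 (values down to 0.07), and the PSPH call without DMSO replicate 1 or 2 of D1 or DMSO replicate 1 of D2 (values of -0.20 to -0.09).

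Among the ER genes, the major lumenal chaperones rose at D2. HSPA5 had 857 and 891 CPM at D2 with TCDD against 496 and 538 CPM at D1 (0.76 ± 0.05, edgeR adjusted p = 9.52e-12), and 822 and 818 CPM at D2 with DMSO against 509 and 519 CPM at D1 (0.67 ± 0.05, 6.46e-11). The lectin chaperone CALR had 1203 and 1221 CPM at D2 with TCDD against 851 and 887 CPM at D1 (0.48 ± 0.04), and 1161 and 1181 CPM at D2 with DMSO against 854 and 865 CPM at D1 (0.45 ± 0.04). HSP90B1, the ER form of HSP90, had 1840 and 1786 CPM at D2 with TCDD against 1544 and 1648 CPM at D1 (0.18 ± 0.04), and 1872 and 1807 CPM at D2 with DMSO against 1562 and 1565 CPM at D1 (0.23 ± 0.04). All 3 were separate between days under both treatments, as were 81.4% of all genes with TCDD and 82.5% with DMSO.

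DNAJB9, a BiP co-chaperone induced by spliced XBP1, fell: it had 13.3 and 13.0 CPM at D2 with TCDD against 16.6 and 17.6 CPM at D1 (-0.38 ± 0.08, edgeR adjusted p = 0.000162), and 13.2 and 13.8 CPM at D2 with DMSO against 16.6 and 16.5 CPM at D1 (-0.29 ± 0.08, 0.00216). XBP1 rose with DMSO (0.13 ± 0.05, edgeR adjusted p = 0.0254) and had 0.05 ± 0.05 with TCDD, and HERPUD1, which helps clear misfolded protein from the ER, rose with DMSO (0.22 ± 0.08, 0.0273) and had 0.11 ± 0.08 with TCDD. Gene totals do not separate spliced from unspliced XBP1. The XBP1 call was lost without DMSO replicate 1 or 2 of D1 or DMSO replicate 2 of D2, and the HERPUD1 call without DMSO replicate 2 of D1 or of D2. DESeq2 called neither.

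**Figure D4:**
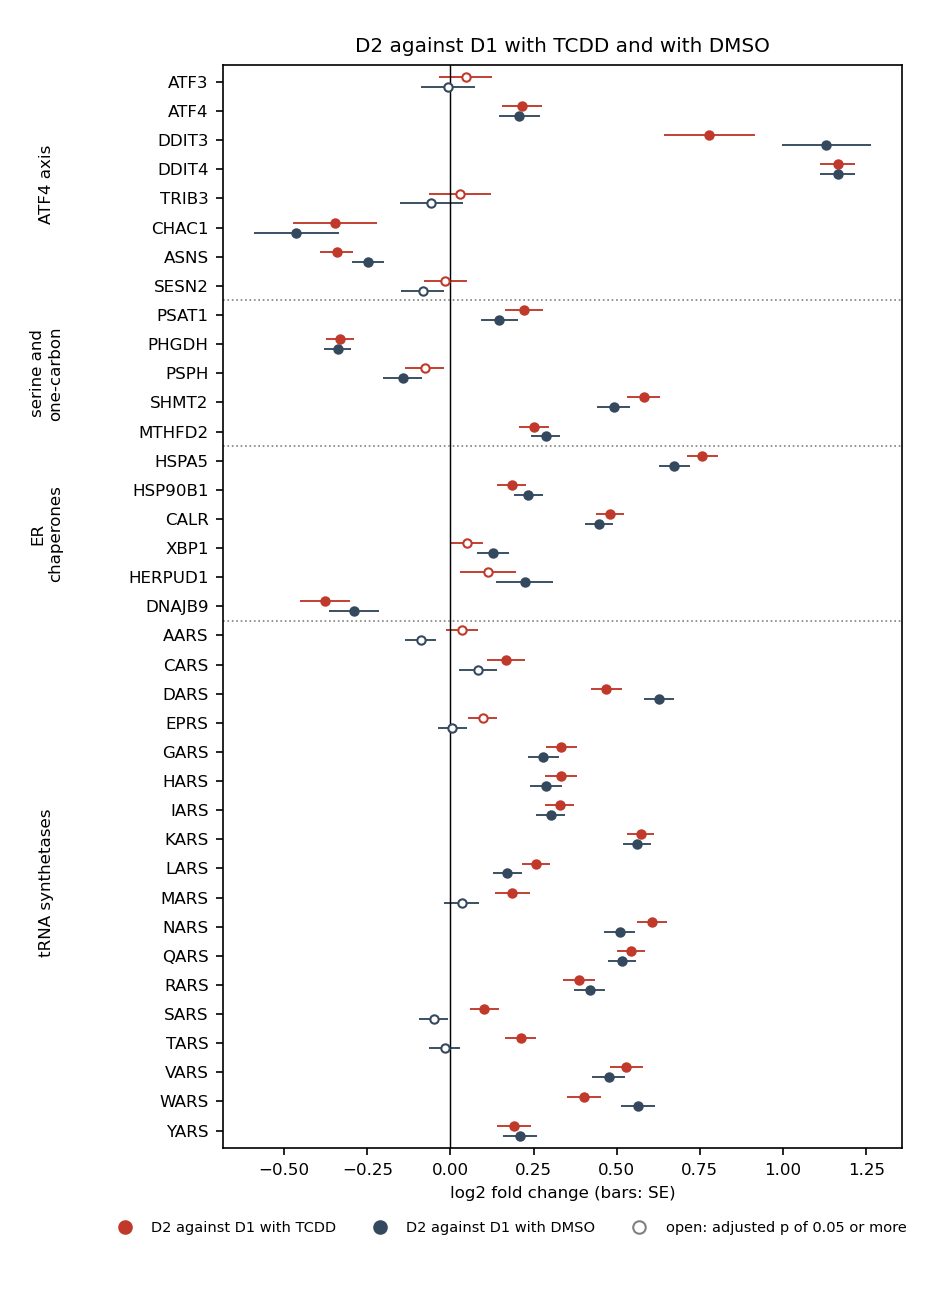
Log2 fold change of D2 against D1 for each gene (rows, by role), red with TCDD and blue with DMSO, with SE bars; filled points have an adjusted p under 0.05. Synthetase points lie at or right of 0 except AARS, SARS and TARS with DMSO, while ASNS, CHAC1, PHGDH and DNAJB9 lie left of 0 under both treatments.

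Most synthetases were higher at D2 than at D1, beside 33.1% of all genes called higher with TCDD and 32.5% with DMSO. With TCDD, 16 of 18 rose, none fell and 2 did not pass, with a median log2 fold change of 0.33; with DMSO, 12 of 18 rose, none fell and 6 did not pass, with a median of 0.28. Of those that did not pass with DMSO, AARS (-0.09 ± 0.05), SARS (-0.05 ± 0.04) and TARS (-0.02 ± 0.05) had values below 0. No synthetase was lower at an unadjusted p under 0.05 with edgeR (0 of 18) or by DESeq2 (0 of 18) under either treatment. The summed level of the 18 synthetases was 5356 and 5410 CPM at D2 with TCDD against 4291 and 4298 CPM at D1, and 5203 and 5301 CPM at D2 with DMSO against 4460 and 4242 CPM at D1. In RefSeq, CARS overlaps CARS1-AS1 and YARS overlaps S100PBP, as SHMT2 does COXFA4L2 and MTHFD2 does SLC4A5. MARS overlaps DDIT3, itself a member, and ARHGAP9. No source used here states that the counting used strand, so the counts of these genes may hold reads of the partner. By structural class, 9 of 10 class I enzymes rose with TCDD and 7 of 10 with DMSO, and 7 of 8 class II enzymes rose with TCDD and 5 of 8 with DMSO. EPRS, a joint glutamate and proline enzyme that passed under neither treatment, was counted in class I only. Of the 8 enzymes of the cytosolic multisynthetase complex, 7 rose with TCDD and 6 with DMSO. Without composition scaling, the calls of CARS, MARS, SARS, TARS and YARS with TCDD and that of LARS with DMSO were lost, and AARS, SARS and TARS were called lower with DMSO.

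The largest rise with TCDD was that of NARS, the asparagine enzyme, at 466 and 474 CPM at D2 against 296 and 322 CPM at D1 (0.61 ± 0.05, edgeR adjusted p = 3.14e-10). With DMSO it had 464 and 470 CPM at D2 against 330 and 326 CPM at D1 (0.51 ± 0.05). The largest rise with DMSO was that of DARS, at 329 and 338 CPM at D2 against 215 and 217 CPM at D1 (0.63 ± 0.05, edgeR adjusted p = 2.13e-10). With TCDD, DARS had 340 and 317 CPM at D2 against 233 and 241 CPM at D1 (0.47 ± 0.05).

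KARS, the lysine enzyme, had 338 and 334 CPM at D2 with TCDD against 227 and 226 CPM at D1 (0.57 ± 0.04), and 330 and 332 CPM at D2 with DMSO against 225 and 223 CPM at D1 (0.56 ± 0.04). QARS, the glutamine enzyme, rose by 0.54 ± 0.04 with TCDD and 0.52 ± 0.04 with DMSO, and VARS, the valine enzyme, by 0.53 ± 0.05 and 0.48 ± 0.05. All D2 libraries of these 3 enzymes lay above all D1 libraries. The days were separate, in either direction, for 81.4% of all genes with TCDD and 82.5% with DMSO. WARS rose to 141 and 151 CPM at D2 with TCDD against 114 and 107 CPM at D1 (0.40 ± 0.05), and to 168 and 173 CPM at D2 with DMSO against 120 and 111 CPM at D1 (0.56 ± 0.05, edgeR adjusted p = 5.11e-09).

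The enzymes for arginine (RARS, 0.39 with TCDD and 0.42 with DMSO), glycine (GARS, 0.33 and 0.28), histidine (HARS, 0.33 and 0.29), isoleucine (IARS, 0.33 and 0.30), leucine (LARS, 0.26 and 0.17) and tyrosine (YARS, 0.19 and 0.21) rose under both treatments. The YARS call was lost without TCDD replicate 2 of D2 (0.14) or DMSO replicate 2 of D1 (0.13). AARS, the alanine enzyme (0.03 ± 0.05 with TCDD and -0.09 ± 0.05 with DMSO), and EPRS, which charges glutamate and proline tRNAs (0.10 ± 0.04 and 0.0048 ± 0.04), passed under neither.

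For 4 synthetases the D2 rise passed with TCDD and not with DMSO. TARS had 302 and 313 CPM at D2 with TCDD against 264 and 266 CPM at D1 (0.21 ± 0.05, edgeR adjusted p = 0.000519), and 286 and 288 CPM at D2 with DMSO against 303 and 277 CPM at D1 (-0.02 ± 0.05). MARS, the methionine enzyme, had 0.19 ± 0.05 with TCDD and 0.03 ± 0.05 with DMSO, CARS, the cysteine enzyme, 0.17 ± 0.06 and 0.08 ± 0.06, and SARS, the serine enzyme, 0.10 ± 0.04 and -0.05 ± 0.04. The test of the difference between the treatments, which is the same contrast as the difference between the TCDD effects, did not pass for TARS (edgeR adjusted p = 0.147), SARS (0.367), MARS (0.488) or CARS (0.79). The SARS call (edgeR adjusted p = 0.0467) was lost in all 8 fits that left out 1 library, the MARS call without TCDD replicate 2 of D2 (0.14), and the CARS call without TCDD replicate 2 of D1 or of D2 (lowest value 0.09).

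The promoter matches printed above were set beside these rises as a description. Of the 6 synthetases with a CARE match, 5 rose at D2 with TCDD (median 0.20) and 2 with DMSO (median 0.058); of the 8 with a promoter entry and no match, 7 rose with TCDD (median 0.36) and 6 with DMSO (median 0.35). NARS and IARS were the matched enzymes that rose under both treatments. ASNS and CHAC1, which also carry the element, fell under both. Of the other members with the element, ATF3 passed under neither treatment and HERPUD1 rose with DMSO only. All 4 ER genes with an ERSE match rose with DMSO (median 0.34) and 3 rose with TCDD (median 0.33). Of the 2 ER genes with no ERSE match in this window, DNAJB9 fell under both treatments and HERPUD1 rose with DMSO. These are few genes and no test was made.

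**Figure D5:**
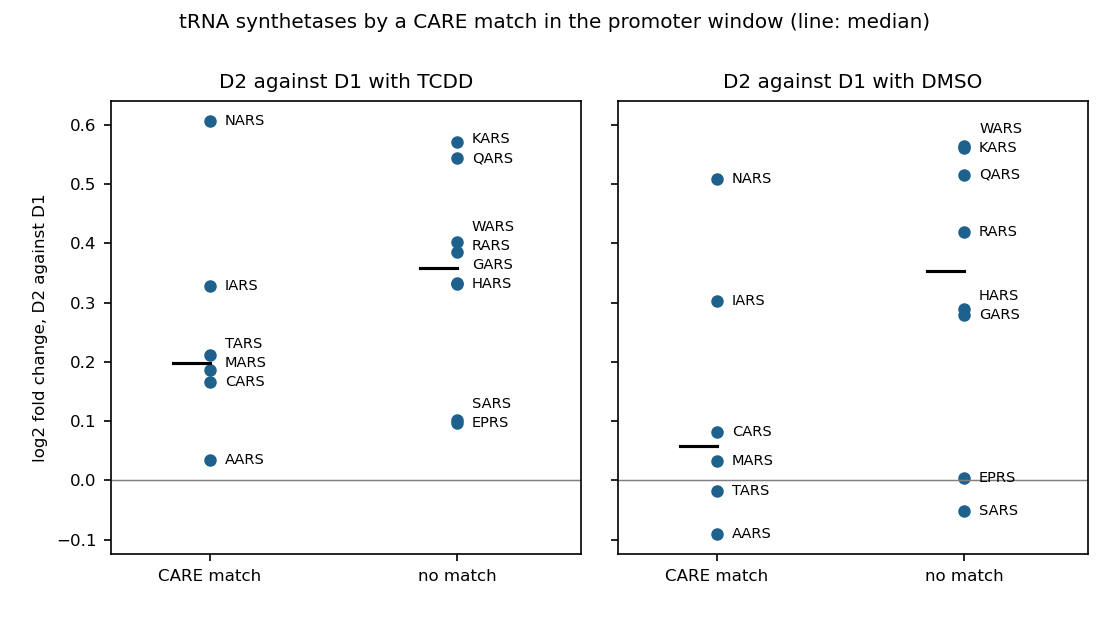
Log2 fold change of D2 against D1 (y axis) for the 14 synthetases with a promoter entry, split by a CARE match (6) or none (8), with TCDD on the left and with DMSO on the right; bars mark medians of 0.20 and 0.36 with TCDD and of 0.058 and 0.35 with DMSO. NARS is the highest of the matched enzymes in both panels, and AARS is the lowest.

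Further genes of these pathways moved at D2 as follows, beside 65.3% of all genes called with TCDD and 63.2% with DMSO. Of 6 synthetase scaffold and phenylalanine-enzyme genes, 3 rose under both treatments, AIMP2, FARSA and FARSB (FARSA 0.73 ± 0.06 with TCDD and 0.61 ± 0.06 with DMSO), and none fell. Of 17 mitochondrial synthetases, 10 rose and 1, NARS2, fell under each treatment. Of 20 further ER stress genes, 12 rose and 3 fell with TCDD and 11 rose and 3 fell with DMSO; CANX, the membrane-bound partner of CALR, rose by 0.62 ± 0.04 and 0.56 ± 0.04, and the sensor ATF6 fell by 0.31 and 0.39 on the log2 scale. Of 12 further serine and folate genes, 7 rose and 2 fell with TCDD and 6 rose and 4 fell with DMSO, led upward by MTHFD1L, which makes formate in mitochondria (0.63 ± 0.05 and 0.61 ± 0.05).

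Among 13 genes of eIF2 signalling, 4 rose and 5 fell under each treatment. That is 69.2% called, near the 65.3% of all genes with TCDD and 63.2% with DMSO. EIF2AK4, which encodes the amino acid sensor kinase GCN2, had -0.48 ± 0.05 with TCDD and -0.57 ± 0.05 with DMSO (edgeR adjusted p = 1.48e-08 and 1.16e-09). EIF2S1, the eIF2 subunit that these kinases phosphorylate, rose by 0.37 ± 0.05 and 0.34 ± 0.05. Of 28 further ATF4 targets, 10 rose and 13 fell with TCDD, and 9 rose and 9 fell with DMSO. SLC7A5, a transporter of large neutral amino acids, rose most (2.25 ± 0.15 with TCDD and 2.04 ± 0.15 with DMSO), and GDF15, a secreted stress hormone, had -1.19 ± 0.12 and -1.38 ± 0.12.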

How the data were processed

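Whole-transcriptome libraries of MEL1 cells were analysed from deposited tables of the authors' raw read counts per gene symbol, which carry no normalisation. Per the submitters' processing notes, cutadapt 1.9.1, STAR and featureCounts 1.5.1 were used on the hg19 build. The annotation, the strand setting, the version of STAR and the handling of multi-mapped reads were not given in the sources used here, so counts of overlapping genes are uncertain. Low genes were removed with filterByExpr, TMM factors (0.958 to 1.04) scaled the libraries, and all 8 libraries entered 1 edgeR 4.0.16 quasi-likelihood fit with robust spread and a mean per group (R 4.3.3; common biological coefficient of variation 3.86%). Two-sided F tests were adjusted by Benjamini-Hochberg over 17268 genes, with a threshold of 0.05; SE were derived from the F statistic. Replicates of a group differed by more than counting noise (chi-square per gene 3.21 to 6.59), so each library was counted as a sample. Groups came from the sample titles. The fit was tested on simulated data.

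Alternatives were other scalings, no filter, DESeq2 1.42.0, a replicate block, the libraries of a comparison alone, each library left out, and, chosen after seeing the data, non-robust spread and a crossed block. The members, the further pathway lists and the markers were chosen with earlier results of these data known. All members are named. Of the further lists, up to 3 called genes per direction with a mean of at least 1 CPM were eligible, by size of change. EOMES and, for TCDD against DMSO, SLC7A5, MESP1, SP5, NANOG and CXCR4 at D2 and SLC2A1 at D1 were named after their values were seen. Promoters are RefSeq sequences on GRCh38.p14, joined by symbol, and carry no count data.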

Additional observations from a re-analysis of the deposited data

How the results depend on the processing

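The number of members called was the same or within 1.5 times in nearly all alternatives. The exceptions were TCDD against DMSO at D2, with 1 to 2 members called over the fits that each left out 1 library (WARS was lost without DMSO replicate 1, DMSO replicate 2 or TCDD replicate 1 of D2), and the difference between the TCDD effects, D2 less D1, with 1 member (TARS) called when no filter beyond 1 count was applied, against 0 with the filter. Leaving out 1 library gave 1 member at D1, 24 to 28 members for D2 against D1 with TCDD, 23 to 28 with DMSO and 0 for the difference of effects. The replicate numbers do not pair the samples (2 pairs, and no label ties a number to a culture or batch; correlations of deviations from -0.10 to 0.11), and the replicate block called 2 members for TCDD at D2, 1 at D1, 28 for D2 against D1 with TCDD, 28 with DMSO and 0 for the difference. With replicate numbers crossed between TCDD at D2 and TCDD at D1, 30 members were called. DESeq2 called 2, 1, 27, 24 and 0 in the same order. SARS with TCDD turned to -0.0082 for D2 against D1 when libraries were scaled by their totals alone; the cause was the scaling, which shifted all genes by -0.11. Depth limits DDIT3 most, with 105 counts in its lowest library, and 2 libraries per group limit every test.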

Other observations

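Other stress genes were read in the same libraries. Of all genes, TCDD gave a call for 2.9% at D2 and 1.14% at D1, where 10.3% had an unadjusted p under 0.05 with edgeR. The difference between the TCDD effects was called for 0.822%. Of 12 heat shock genes, cytosolic except for the mitochondrial HSPD1 and HSPE1, TCDD lowered 1 at D2; at D1 edgeR and DESeq2 called 0, and 4 had an unadjusted p under 0.05. The D2 gene was HSPE1, the small mitochondrial chaperonin (-0.29 ± 0.07, edgeR adjusted p = 0.0137), and the difference between its TCDD effects, D2 less D1, was -0.46 ± 0.10 (edgeR adjusted p = 0.02). For D2 against D1, 7 of the 12 rose and 4 fell with TCDD, and 6 rose and 4 fell with DMSO. That is 91.7% and 83.3% called, beside 65.3% and 63.2% of all genes. HSPA8, the constitutive HSP70, rose by 0.79 ± 0.04 with TCDD and 0.70 ± 0.04 with DMSO, while the stress-induced HSPA1A had -0.82 ± 0.08 and -0.76 ± 0.08; HSPA1A and HSPA1B are near-identical copies whose reads may be split.

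Of 12 genes of p53 and mTOR stress, TCDD raised SESN3, a relative of SESN2 that also restrains mTORC1 (0.35 ± 0.06, edgeR adjusted p = 0.00237), and lowered GADD45B (-0.39 ± 0.09, 0.0156, not called by DESeq2) at D2. At D1 edgeR called 0 of the 12, 3 had an unadjusted p under 0.05 and DESeq2 called 1. Of all genes, edgeR called 2.9% at D2 and 1.14% at D1, where 10.3% had an unadjusted p under 0.05. The difference between the SESN3 effects, D2 less D1, was 0.61 ± 0.09 (edgeR adjusted p = 0.00171). For D2 against D1, 4 of the 12 rose and 6 fell with TCDD, and 3 rose and 7 fell with DMSO. That is 83.3% called under each treatment, beside 65.3% of all genes with TCDD and 63.2% with DMSO. The glucocorticoid-induced FKBP5 had -0.49 ± 0.05 with TCDD and -0.63 ± 0.05 with DMSO.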
